A study of Arabidopsis thaliana with 18 samples.

Results

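Nitrogen depletion in wild-type seedlings was examined by comparing the 3 arrays of depleted wild type with the 3 arrays of replete wild type, 6 of the 18 arrays in the series. The members were taken from the sample titles, and every probe set other than the array's own controls was used, 22746 in all. Each sample was RNA of whole 9-day-old Arabidopsis thaliana seedlings, Col-0 background, hybridised to Affymetrix ATH1 arrays, on which each transcript is read by a set of short probes. Replete seedlings had 4 mM KNO3 for all 9 days, and depleted seedlings had it for 7 days followed by 2 days in medium with no added nitrogen. The other 12 arrays held depleted seedlings overexpressing LBD37 or LBD38 and replete seedlings with a T-DNA insertion in LBD37 or LBD38, 3 arrays each. Both genes encode plant-specific transcription factors with a LATERAL ORGAN BOUNDARIES domain. The promoter of the overexpression constructs is not given in the labels used here. All seedlings were kept in 24 h light, and the labels differ on whether the first days were spent in liquid culture or on agar. Replicates are labelled biological, but what was repeated is not stated, and p-values cover only the spread among these arrays, which may be partly technical.

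Plants take up nitrate through plasma membrane transporters, reduce it and build it into amino acids. Much of a leaf's nitrogen lies in the chloroplast and in ribosomes. When the supply stops, plants are known to take up nitrogen with high-affinity transporters, to break down proteins through autophagy and vacuolar proteases, to export the released amino acids and to accumulate anthocyanins. The seedlings were profiled as bulk tissue, so fewer cells of a type and less RNA per cell cannot be told apart.

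The 6 arrays had medians of 6.99 to 7.04 on the log2 signal scale. The interquartile range was 3.25 to 3.28 in depleted and 3.08 to 3.22 in replete seedlings (two-sided exact permutation p = 0.1, which is the lowest possible with 3 arrays a group). The polyubiquitin control probe sets read 0.50 to 0.77 higher on the log2 scale in depleted seedlings, each without overlap. The GAPDH controls read 0.245 to 0.41 higher, also without overlap. The actin controls for the 3' end read 0.196 and 0.261 higher, and those for the 5' end changed by −0.2 and 0.0119. Whether RNA quality or labelling differed between the groups was not tested. Of 22746 probe sets, 50.2% passed the threshold of an adjusted p under 0.05 (limma), 23.5% higher and 26.6% lower in depleted seedlings. The groups did not overlap for 58.3% of probe sets, and the median log2 change was −0.07. At least 2-fold higher were 5.12% and at least 2-fold lower 4.95% of probe sets, so counts within a gene group are given beside these shares. The annotation used pairs 13513 probe sets with exactly 1 gene, 503 with several and 8730 with none, so a list is described by the members it could match, called measured below, and the others were not analysed here. Transcripts of ammonium assimilation, of ammonium and amino acid transport, of phosphate starvation and of salicylate defence were not analysed here.

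Of the listed genes of nitrate transport 2 of 21 could be matched, and of nitrogen signalling regulators 3 of 25, and these changed in both directions. NRT2.5, a high-affinity nitrate transporter, read 9.99, 9.92 and 10.10 in depleted seedlings and 6.19, 5.98 and 6.15 in replete seedlings (log2 signal). The groups lay far apart, and the change was 3.90 ± 0.21 on the log2 scale (estimate ± SE; limma adjusted p = 7.36e-11). NPF6.2 (AT2G26690), a nitrate transporter of another family, moved the other way, from 8.96, 8.87 and 8.65 to 7.71, 7.87 and 7.89 (−1.01 ± 0.14, adjusted p = 1.1e-05). The list for nitrogen signalling regulators had 3 measured loci, which the annotation used here gives no symbol. AT1G68670 and AT1G25550 fell by 1.25 and 1.30, whereas AT3G25790 rose by 0.87 from a low level of 4.78 ± 0.05 to 5.65 ± 0.19 (mean ± SD, n = 3). None of the 3 had overlapping groups.

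Genes of autophagy, the delivery of cytoplasm to the vacuole in membrane vesicles, rose together. Of 16 measured genes 15 were higher and none was lower, with a median log2 change of 0.83 against −0.07 over all probe sets. The shares over all probe sets were 23.5% higher and 26.6% lower. All 9 genes of the ATG8 family, ubiquitin-like proteins that coat the autophagosome membrane, rose, by 0.60 to 2.13. ATG8B read 9.59, 9.64 and 9.75 in depleted and 7.41, 7.64 and 7.52 in replete seedlings (4.38-fold, adjusted p = 1.22e-11). APG8A read 11.02, 10.98 and 10.87 against 8.94, 9.14 and 9.22 (3.62-fold, adjusted p = 2.29e-11). Every depleted array stood above every replete array for both genes. ATG3, which attaches ATG8 to lipid, rose by 0.64. The member without a call was AT3G18770, at 0.09.

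The vacuolar processing enzymes are cysteine proteases that cut and activate other vacuolar proteins. Of the 4, 3 were higher, against 23.5% of all probe sets. GAMMA-VPE, the form known from vegetative tissue, read 13.15, 13.06 and 12.88 in depleted and 10.37, 10.43 and 10.52 in replete seedlings. It rose 6.01-fold (adjusted p = 1.2e-11), and the groups were far apart. BETA-VPE, known as the seed form, read 8.81, 8.36 and 8.21 against 6.37, 6.08 and 5.84 (5.14-fold, adjusted p = 2.42e-09). ALPHA-VPE rose 2.77-fold. DELTA-VPE, a seed coat form, read 4.89 ± 0.11 and 5.08 ± 0.06, a change of −0.19 that did not pass (adjusted p = 0.0653).

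Of 11 measured subunits of ESCRT, the machinery that pinches vesicles into multivesicular endosomes, 9 were higher and 1 was lower, with a median of 0.80. The shares over all probe sets were 23.5% and 26.6%. VPS60.1 read 8.73, 8.66 and 8.56 against 7.44, 7.52 and 7.59 (2.20-fold, adjusted p = 8.9e-09), and SNF7.2 and VPS2.1 rose by 1.02 and 0.97. VPS2.2 went the other way, from 7.97, 8.24 and 8.02 to 7.02, 7.28 and 7.37 (−0.85 ± 0.12, adjusted p = 6.95e-06). Its groups did not overlap. The exocyst, a complex that tethers vesicles at the plasma membrane, had no subunit past the threshold among 7 (limma, changes of −0.06 to 0.24), 3 had an unadjusted p under 0.05, and 2 passed under some alternative settings.

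Ubiquitin-conjugating enzymes, which pass ubiquitin to proteins marked for breakdown, were 7 higher and 2 lower of 12. UBC32, UBC30 and UBC16 rose by 1.11, 1.09 and 1.01. UBC20, a relative of a mitotic enzyme of animals, fell by 1.15, reading 7.86, 7.84 and 7.93 against 9.02, 9.22 and 8.85 (adjusted p = 8.07e-09). The U-box ubiquitin ligases had 3 of 9 members higher, led by PUB24 (1.10), and none lower. Of 12 ubiquitin-specific proteases 4 were higher and 1 lower, with a median of −0.06. Over all probe sets 23.5% were higher and 26.6% lower, so the ligases and these proteases lay not far above the first share. SAG101, a gene first known from leaf senescence, rose 2.92-fold, and the transcription factors WRKY53 and WRKY6, both tied to senescence, rose 2.45- and 1.64-fold. These were the 3 of 17 listed genes of senescence and chlorophyll breakdown that the annotation matched.

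**Figure D1:**
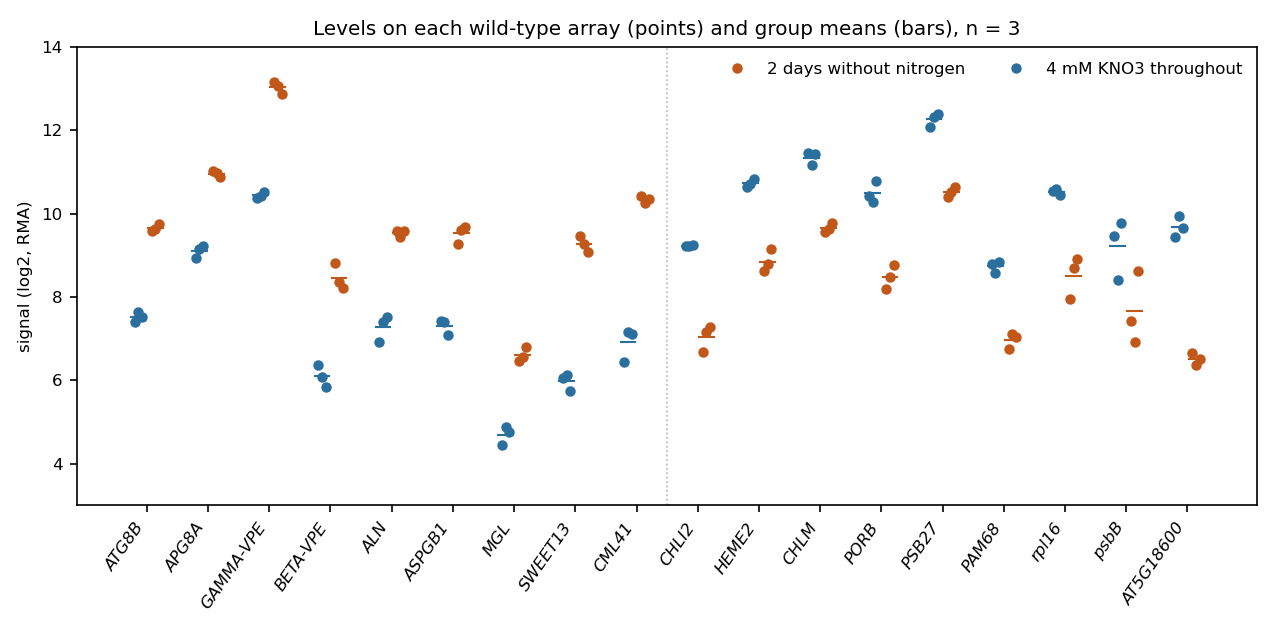
Signal (log2, RMA) of 18 genes on each of the 3 depleted (orange) and 3 replete (blue) wild-type arrays, with bars at the group means. The 9 genes on the left were higher and the 9 on the right lower in depleted seedlings, and only psbB had overlapping groups.

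Among genes listed for the breakdown of amino acids, purines and ureides more rose than fell. Not every enzyme on these lists, PPDK among them, releases nitrogen itself. In one list 4 of 9 were higher and 2 lower, with a median log2 change of 0.19, and in a further list 7 of 10 were higher and none lower, with a median of 0.85, against 23.5% higher and 26.6% lower over all probe sets. In the ureide route from purines, allantoinase (ALN) read 9.58, 9.44 and 9.58 in depleted and 6.93, 7.39 and 7.53 in replete seedlings (4.77-fold, adjusted p = 4.96e-11). Allantoate amidohydrolase (AAH), the next enzyme, rose 1.81-fold. Ureidoglycine aminohydrolase (UGLYAH), which follows AAH, read 6.05 ± 0.06 and 5.93 ± 0.06 and did not pass (0.12 ± 0.06, adjusted p = 0.131). Urease (URE) rose by 0.37, and lost its call when any of 4 of the 6 arrays was left out (adjusted p = 0.0534 to 0.105).

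The asparaginase ASPGB1, which releases ammonium from asparagine, read 9.27, 9.61 and 9.69 against 7.43, 7.39 and 7.09 (4.67-fold, adjusted p = 5.4e-08). Its relative ASPGA1 changed by 0.10 ± 0.10, with overlapping groups (adjusted p = 0.422). Methionine gamma-lyase (MGL) read 6.46, 6.55 and 6.79 against 4.44, 4.89 and 4.76, a 3.74-fold rise. Its replete values lay in the range of the dimmest probe sets, so this fold is rough. Ornithine aminotransferase (DELTA-OAT) rose 2.16-fold, the aldehyde dehydrogenase ALDH7B4 2.72-fold and pyruvate orthophosphate dikinase (PPDK) 3.13-fold. The lysine-degrading enzyme LKR/SDH (AT4G33150) rose by 0.55. The leucine pathway differed, since both subunits of methylcrotonyl-CoA carboxylase fell, MCCA by 0.42 and MCCB by 0.46, and isovaleryl-CoA dehydrogenase (IVD) stood at 0.19 without passing.

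Of 13 measured enzymes of citrate metabolism and the tricarboxylic acid cycle, which supply carbon skeletons and reducing power, 7 were higher and none was lower, with a median of 0.32. The isocitrate dehydrogenase ICDH rose by 0.74, and the succinate dehydrogenase subunits SDH2-1 and SDH1-1 by 0.67 and 0.59. ATP-citrate lyase, which makes acetyl-CoA in the cytosol, had 1 of 4 subunit genes higher (ACLA-3, 0.34), near the 23.5% higher over all probe sets. The list for nitrate reduction and its supply of reductant had 3 measured loci, none of them a listed nitrate or nitrite reductase gene, and all 3 rose. AT5G41670 read 10.82, 10.90 and 10.75 against 9.76, 9.55 and 9.88 (2.13-fold, adjusted p = 4.99e-08), and AT3G02360 and AT1G64190 rose by 0.72 and 0.31.

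**Figure D2:**
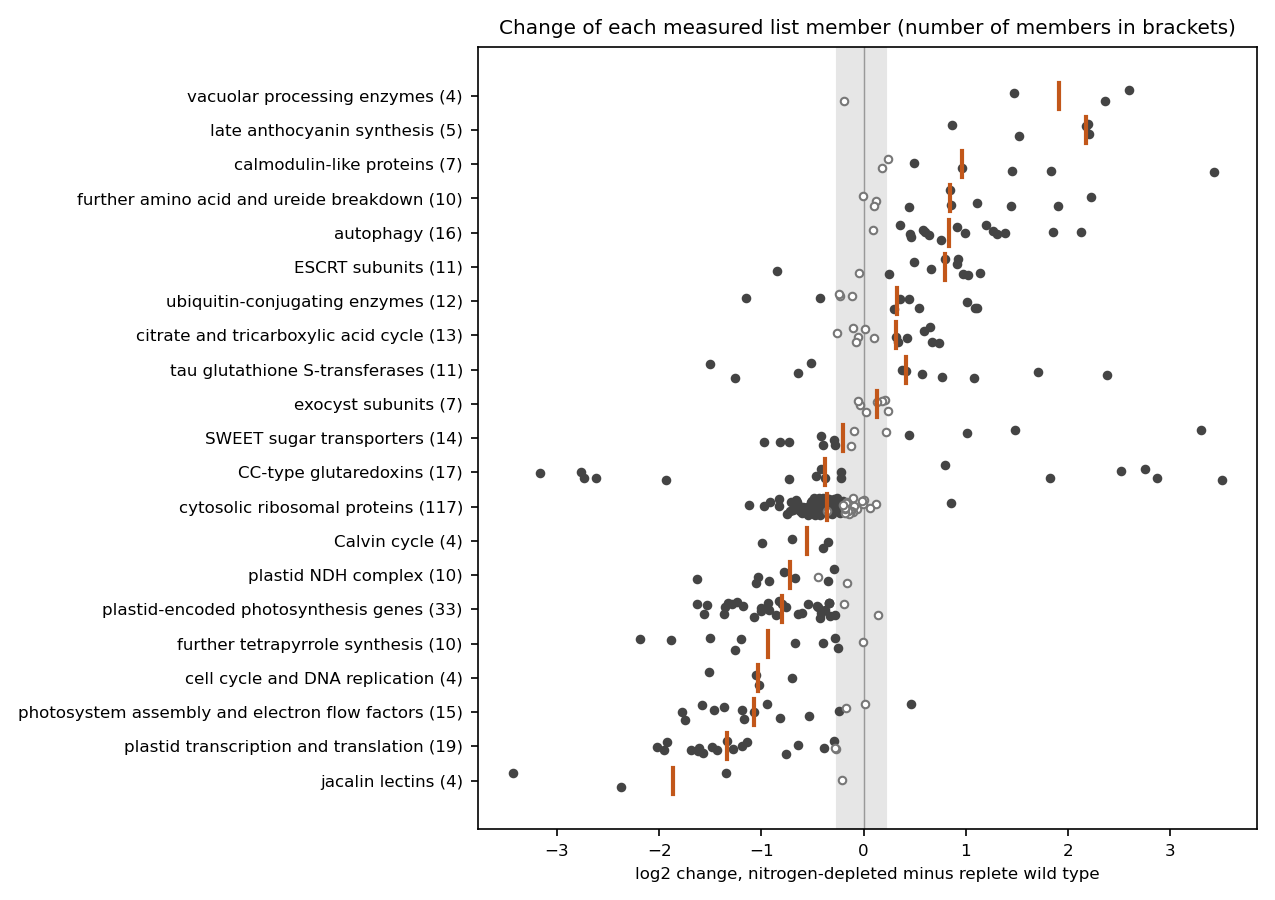
Log2 change (depleted minus replete wild type) of every measured member of 21 gene lists, with filled points past the adjusted p threshold, open points not past it and orange bars at list medians. The grey band spans the quartiles over all probe sets, −0.26 to 0.22, and the medians run from −1.86 for jacalin lectins to 2.17 for late anthocyanin synthesis.

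Transcripts of the plastid genome were lower almost throughout. Of 69 plastid-encoded probe sets 63 were lower and none was higher, against 26.6% and 23.5% of all probe sets. Their median log2 change was −0.94, against medians of −0.09 to −0.08 on the 5 nuclear chromosomes. The fall was unequal between functions. Genes for plastid RNA polymerase and ribosomal proteins had a median of −1.34 (17 of 19 lower), genes for photosystems, cytochrome, ATPase and RbcL −0.80 (31 of 33 lower), and genes of the NDH complex of cyclic electron flow −0.72 (8 of 10 lower). The median signal of the 19 genes for transcription and translation was 7.70, 8.19 and 8.42 on the depleted arrays and 9.53, 9.72 and 9.49 on the replete arrays. The groups were apart, and depleted replicate 1 was the lowest.

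The ribosomal protein gene rpl16 read 7.94, 8.69 and 8.91 against 10.55, 10.59 and 10.44 (4.05-fold lower, adjusted p = 1.78e-07). The others near it were rpl22 and rps16, which fell by 1.95 and 1.92. Among the polymerase genes rpoC1 fell by 1.57, rpoC2 by 1.14 and rpoA by 0.64. The rpoB gene (−0.29) read 4.49 ± 0.12 in depleted and 4.78 ± 0.06 in replete seedlings, in the range of the dimmest probe sets. It lost its call when any of 5 of the 6 arrays was left out (limma adjusted p = 0.0522 to 0.13). The call was also lost with repeated quantile normalization (−0.20, adjusted p = 0.149) and with array weights (−0.28, adjusted p = 0.0662).

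The photosynthetic genes spread widely. The photosystem II antenna gene psbC read 9.69, 10.07 and 10.15 against 11.48, 11.02 and 11.52 (2.58-fold lower, adjusted p = 1.96e-07). The gene for the large subunit of Rubisco, rbcL, read 8.44, 8.54 and 8.62 against 9.33, 9.55 and 9.50 (1.90-fold lower, adjusted p = 0.000502). Neither gene had overlapping groups. The psbB gene was 2.95-fold lower but varied within both groups, from 6.93 to 8.62 in depleted and from 8.40 to 9.78 in replete seedlings, so that its groups overlapped. The 2 members without a call were psbA, for the D1 reaction centre protein (−0.19 ± 0.15, adjusted p = 0.313), and psbM (0.14 ± 0.12, adjusted p = 0.318). Without depleted replicate 2 psbA was at −0.36 and passed (adjusted p = 0.0467), and with repeated quantile normalization psbM was at 0.32 and passed (adjusted p = 0.0146). Plastid transcripts mostly lack a stable poly(A) tail, and the primer used to make the labelled RNA is not stated in the labels.

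**Figure D3:**
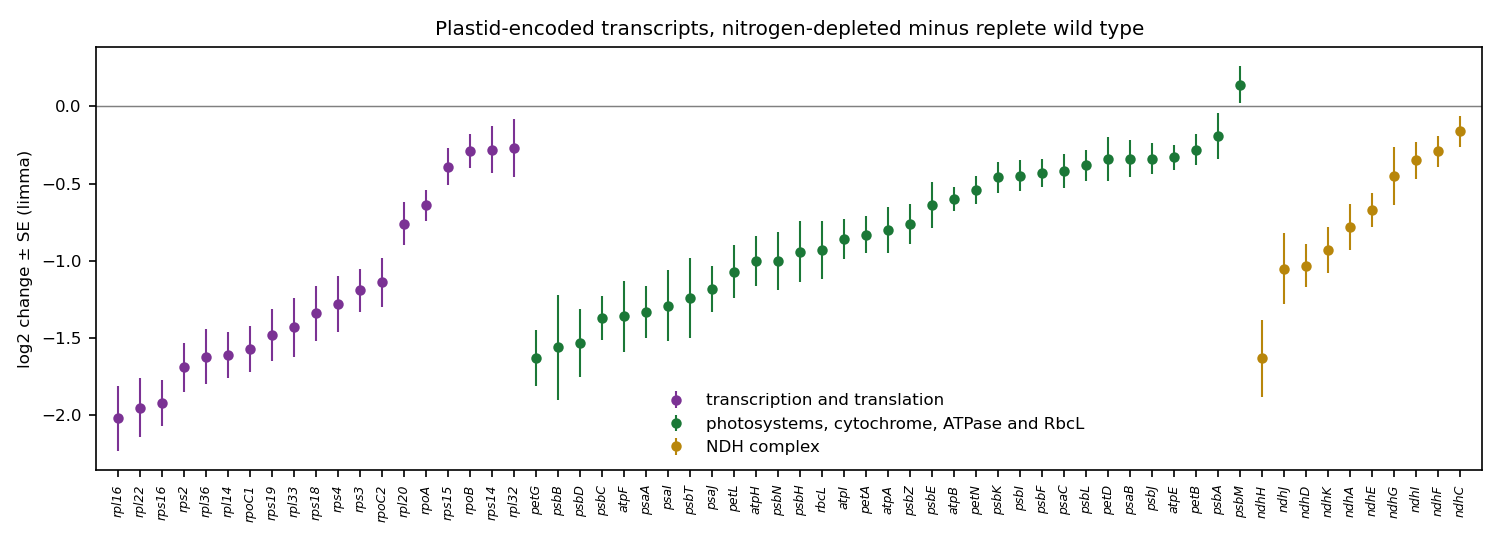
Log2 change ± SE (limma, depleted minus replete wild type) of 62 plastid-encoded genes in 3 functional groups, ordered within each group. Transcription and translation genes reach −2.02 (rpl16), photosynthesis genes −1.63 (petG) and NDH genes −1.63 (ndhH), and only psbM lies above 0.

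Nuclear genes for chlorophyll and for photosystem assembly fell as well. Tetrapyrrole synthesis makes haem and chlorophyll from glutamate, and of 10 further genes 9 were lower and none was higher, with a median of −0.93. The shares over all probe sets were 26.6% lower and 23.5% higher. The list holds NOL, which acts in chlorophyll breakdown and not in synthesis, and which fell by 0.40. CHLI2, a subunit of magnesium chelatase, read 6.68, 7.16 and 7.28 in depleted and 9.22, 9.22 and 9.25 in replete seedlings (4.56-fold lower, adjusted p = 1.64e-10). The uroporphyrinogen decarboxylase HEME2 read 8.62, 8.79 and 9.14 against 10.63, 10.71 and 10.84 (3.67-fold lower, adjusted p = 2.32e-10), and HEME1 fell by 1.50. GSA1 and HEMB1, which act earlier, fell by 1.20 and 1.26. HEMA2, a glutamyl-tRNA reductase gene, did not differ beyond its error (−0.01 ± 0.09, adjusted p = 0.951).

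The list for chlorophyll synthesis had 2 of 12 genes measured, both late enzymes, and they fell more than most of these. The methyltransferase CHLM read 9.55, 9.63 and 9.78 against 11.45, 11.16 and 11.43 (3.23-fold lower, adjusted p = 1.25e-09). The protochlorophyllide oxidoreductase PORB read 8.18, 8.48 and 8.76 against 10.43, 10.29 and 10.78 (4.08-fold lower, adjusted p = 2.17e-09). Neither had overlapping groups.

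Of 15 factors for photosystem assembly and electron flow 12 were lower and 1 was higher, against 26.6% and 23.5% of all probe sets. Their median was −1.07. PAM68, needed to assemble photosystem II, read 6.75, 7.10 and 7.05 against 8.80, 8.57 and 8.85 (3.42-fold lower, adjusted p = 5.05e-10). PSB27, another photosystem II factor, read 10.40, 10.51 and 10.64 against 12.07, 12.33 and 12.40 (3.37-fold lower, adjusted p = 4.12e-09). NdhL, a nuclear-encoded subunit of the NDH complex, fell by 1.58, LPA2 by 1.46 and LPA19 by 1.37. The exception was PGRL1B, a protein of cyclic electron flow around photosystem I, which rose from 8.19, 8.12 and 8.36 to 8.80, 8.60 and 8.65 (1.38-fold, adjusted p = 0.000183).

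Among 6 nuclear photosystem, antenna and ATPase genes, the measured part of a list of 41, 5 were lower, PSAN by 1.14 and ATPC1 by 0.85. The antenna gene LHCB4.3 was at 0.05 with overlapping groups. Of 16 listed genes of the Calvin cycle, which fixes carbon dioxide, 4 could be matched, and all 4 fell. The largest change was that of SBPASE, a regulated phosphatase of the cycle, from 11.99, 12.10 and 12.12 to 10.95, 11.15 and 11.14 (1.98-fold lower, adjusted p = 5.44e-06).

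Leaf and root markers differed between the groups as well, and their part in these results was not tested. Of 4 leaf and stomatal markers 3 fell, SPCH by 1.41, YAB3 by 0.81 and MUTE by 0.26, and FMA rose by 0.24. Their summed signal was 350 to 435 (linear scale) in depleted and 589 to 657 in replete seedlings. Of 4 root markers 3 rose, AT4G26010 by 0.94, EXPA18 by 0.74 and EXPA7 by 0.51, and PYK10 fell by 1.27. Their summed signal, most of it PYK10, was 3968 to 4677 in depleted and 6977 to 7287 in replete seedlings.

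Ribosomal protein genes and the few measured cell cycle genes were also lower. Of 117 measured cytosolic ribosomal protein genes 96 were lower and 1 was higher, against 26.6% and 23.5% of all probe sets. Their median log2 change was −0.36. The median signal of the list was at most 11.10 on the depleted arrays and at least 11.41 on the replete arrays. AT3G28900 fell most, from 10.70, 10.88 and 10.68 to 9.56, 9.73 and 9.59 (2.18-fold lower, adjusted p = 6.42e-08). AT5G39850 was the exception, rising from 7.90 ± 0.10 to 8.75 ± 0.03 (mean ± SD, n = 3; limma adjusted p = 1.69e-06).

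In the list for cell cycle and DNA replication only 4 of 30 genes could be matched, and all 4 fell, with a median of −1.04. The Aurora kinases AUR1, AUR2 and AUR3 fell by 1.02, 1.51 and 0.70 and the replication licensing gene PRL by 1.05. AUR2 read 6.40, 6.55 and 6.52 in depleted and 7.94, 8.12 and 7.96 in replete seedlings. Of 8 histone genes 4 were lower, HTB1 and HTB2 by 0.83 and 0.84, and 1 was higher (HIS1-3, a linker histone, 0.23), a call lost in 6 alternatives (0.16 to 0.23, adjusted p up to 0.207). The count of histones past the threshold was 2 without depleted replicate 1 or replete replicate 2. Of 7 tubulin genes 4 were lower, TUB7 by 1.01 and TUB5 by 0.85, and none was higher. Over all probe sets 26.6% were lower and 23.5% higher.

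Of 27 expansins and xyloglucan endotransglucosylases, which loosen and rejoin wall polysaccharides, 8 were higher and 9 lower, shares near the 23.5% and 26.6% over all probe sets. XTH26 rose from 5.23, 5.02 and 5.24 to 6.79, 6.50 and 6.17 (2.50-fold, adjusted p = 1.86e-07), and XTH21 by 0.80. EXPB2 fell by 1.35, XTH32 by 1.19 and XTH16 by 1.08. EXPA7 and EXPA18, among the higher ones, are the root hair markers given above. Of 15 cellulases of glycosyl hydrolase family 9, 6 were lower, GH9B13 by 1.55, and 1 was higher (GH9C1, 0.99).

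Some sugar and starch genes were among the largest rises, and others fell. In the list for sucrose and sugar transport 2 of 12 genes could be matched, at −0.80 and −0.55, 1 lower and 1 without a call. Of 22 listed genes of starch synthesis and breakdown 4 could be matched. APL3, which encodes a large subunit of the first committed enzyme of starch synthesis, read 9.10, 9.12 and 9.00 against 6.20, 5.79 and 6.01 (8.42-fold, adjusted p = 8.49e-09). The branching enzyme SBE2.2 rose by 0.68, and DPE1, which acts on maltotriose during starch breakdown, fell by 0.74. The SWEET proteins carry sugars down their gradients. Of 14 measured 4 were higher and 7 lower, against 23.5% and 26.6% of all probe sets, and their median was −0.20. SWEET13, a sucrose carrier, read 9.46, 9.27 and 9.08 against 6.05, 6.12 and 5.75 (9.83-fold, adjusted p = 1.96e-10). SWEET4 rose 2.79-fold and SWEET14 2.02-fold. SWEET17 and SWEET16, carriers of the vacuole membrane, fell by 0.97 and 0.73, SWEET17 from 8.32, 8.42 and 8.36 to 7.47, 7.49 and 7.24. The 5 measured genes of late anthocyanin synthesis rose by 0.86 (UGT78D2) to 2.20 (DFR), whereas UGT78D1 and UGT78D3, which glycosylate flavonols, were at 0.03 and −0.22 and did not pass.

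The CC-type glutaredoxins, small plant-specific redox proteins, split into members that rose and members that fell strongly. Of 17 loci listed from background knowledge and measured, 6 were higher and 11 lower, against 23.5% and 26.6% of all probe sets. Of the 17, 15 had no overlap, against 58.3% of all probe sets. Their median was −0.38, and 1.82 with the dimmest 40% of all probe sets left out, which kept 9 past the threshold. AT4G33040 read 11.05, 11.06 and 10.85 in depleted and 7.44, 7.51 and 7.51 in replete seedlings (11.3-fold, adjusted p = 3.01e-11). AT5G11930, AT2G47880 and AT3G62960 rose 7.33-, 6.74- and 5.73-fold, and GRX480 by 1.82 on the log2 scale. AT5G18600 read 6.66, 6.37 and 6.51 against 9.44, 9.95 and 9.65 (8.99-fold lower, adjusted p = 5.68e-12).

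Neighbouring members on chromosome 4 fell together. AT4G15660, AT4G15680, AT4G15690 and AT4G15700 lie with at most 1 protein-coding gene between them in the TAIR10.1 gene order and were 3.82-, 6.76-, 6.66- and 6.15-fold lower. AT4G15660, AT4G15690 and AT4G15700 read 4.23 ± 0.17, 3.96 ± 0.26 and 3.40 ± 0.10 in depleted seedlings (mean ± SD, n = 3), in the range of the dimmest probe sets, so these 3 folds are rough. On chromosome 3, AT3G62960 rose whereas its direct neighbour AT3G62950 (−0.38, overlapping groups) and AT3G62930 (−0.73) fell. Probes were not compared for shared sequence, so signal shared between close relatives was not tested.

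Some other neighbouring relatives also moved apart. The tau glutathione S-transferases, which join glutathione to electrophiles, were 7 higher and 4 lower of 11. The shares over all probe sets were 23.5% and 26.6%. GSTU25 read 11.79, 11.61 and 11.78 against 9.24, 9.37 and 9.44 (5.19-fold, adjusted p = 1.01e-10). Its direct neighbour GSTU26 fell from 7.41, 7.63 and 7.50 to 7.00, 6.96 and 6.66 (−0.64 ± 0.17, adjusted p = 0.00365). In another stretch of chromosome 1 GSTU22 and GSTU21 rose by 1.70 and 1.08, while GSTU23 and GSTU20 on either side fell by 0.52 and 1.50. GSTU20 read 9.97, 10.13 and 10.08 in depleted and 11.67, 11.54 and 11.46 in replete seedlings.

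The methionine sulfoxide reductases, which repair oxidised methionine, also moved apart. MSRB6 read 7.17, 7.01 and 6.85 against 10.09, 10.14 and 10.31 (9.00-fold lower, adjusted p = 9.48e-10). MSRB5, beside it, fell by 0.84, and MSRB3, with 1 gene between it and MSRB5, rose from 8.04, 7.68 and 7.91 to 8.90, 8.77 and 8.67 (1.87-fold, adjusted p = 4.09e-07). MSRB9, at another place on the chromosome, rose 3.45-fold. Over the lists, 66 neighbouring pairs had at most 2 genes between them, and 25 of these had both members past the threshold. Of the 25, 8 moved in opposite directions, and the others, the larger part, moved in the same direction.

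**Figure D4:**
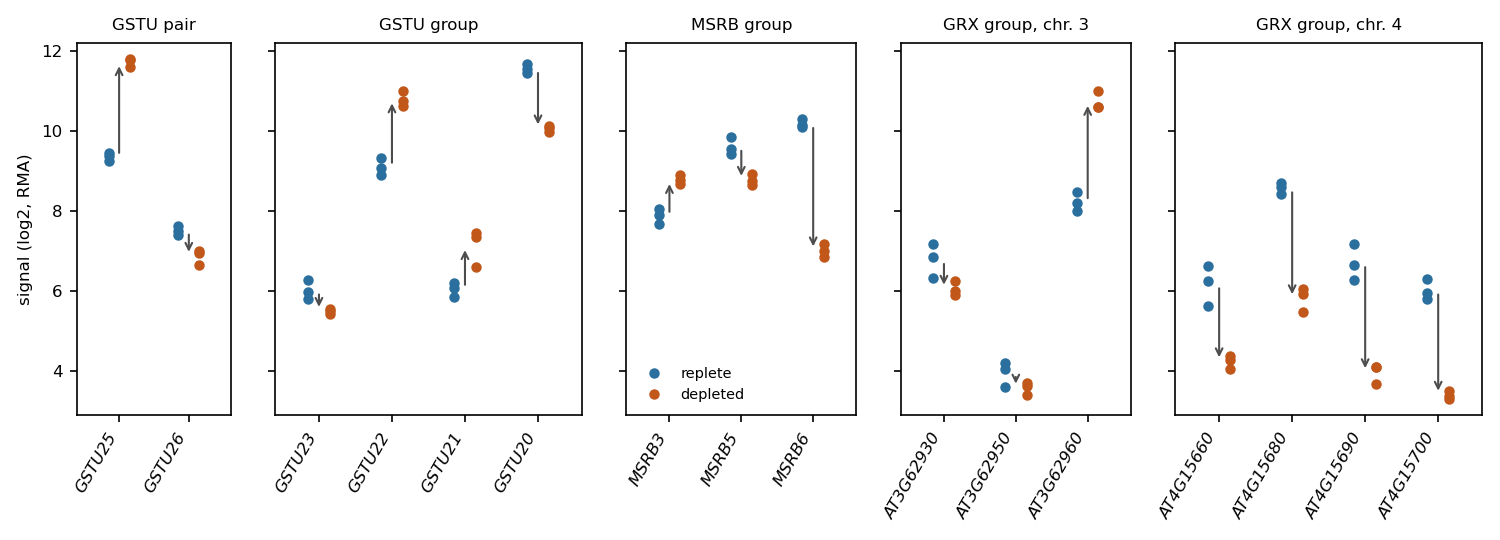
Signal (log2, RMA) on each replete (blue) and depleted (orange) wild-type array for 5 groups of neighbouring relatives, with arrows from the replete to the depleted mean. Arrows point both ways within the GSTU, MSRB and chromosome 3 glutaredoxin groups and down for all 4 chromosome 4 glutaredoxins.

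Iron genes were few, with 4 of 33 listed for iron acquisition and storage measured, and they moved both ways. AT1G47400, on the list for iron acquisition but without a symbol in the annotation used here, read 4.79, 4.80 and 4.86 in depleted and 9.36, 9.18 and 8.77 in replete seedlings, the depleted values lying among the dimmest probe sets. The iron regulators BHLH101 and PYE fell by 1.17 and 0.53, and bHLH121, another regulator, by 0.31. BHLH101 read 4.43 ± 0.13 in depleted seedlings (mean ± SD), also in the range of the dimmest probe sets. Partners of PYE and bHLH121 in the same family rose, bHLH115 by 0.76, ILR3 by 0.54 and bHLH104 by 0.41. Of 5 measured members in a list of iron-regulating bHLH factors these 3 were higher, bHLH121 was lower and 1 did not pass. F6'H1 (AT3G13610), an enzyme of coumarin synthesis that serves iron uptake, rose from 9.93, 10.25 and 10.32 to 11.23, 11.39 and 11.30 (2.20-fold, adjusted p = 2.54e-07).

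Of 7 calmodulin-like calcium sensors 5 were higher and none was lower, against 23.5% and 26.6% of all probe sets. CML41 read 10.43, 10.26 and 10.35 against 6.45, 7.17 and 7.11 (10.8-fold, adjusted p = 4.85e-11), and CML23 and CML37 rose 3.54- and 2.74-fold. Of 4 jacalin lectins 3 fell, against 26.6% of all probe sets. JAL22 read 5.87, 6.36 and 6.13 against 8.44, 8.26 and 8.75 (5.16-fold lower, adjusted p = 1.5e-10), JAL33 fell by 3.43 and its neighbour JAL34 by 1.35.

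Among the 30 largest rises with 1 listed gene, 7.33- to 49.1-fold, the annotation gives a symbol other than the locus to 4, NRT2.5, CML41, SWEET13 and APL3. Among the 30 largest falls, 5.02- to 19.6-fold, it gives one to 3, JAL33, MSRB6 and JAL22. The group mean at the lower level lay among the dimmest probe sets, under 5.27, for 3 of these rises and 6 of these falls. Of probe sets with no listed gene, 264400_at, 266292_at, 250100_at, 259953_at and 260706_at rose 45.2-, 25.6-, 21.8-, 16.7- and 14.5-fold. In the other direction 254550_at, 267262_at, 253502_at, 252367_at and 264014_at fell 103-, 28.6-, 19.2-, 18.9- and 15.4-fold. The first 3 of these read 4.47, 4.38 and 3.61 on average in depleted seedlings, among the dimmest probe sets, so their folds are rough.

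The same genes were then read in the other groups. These comparisons use the same wild-type arrays, so values are set side by side and no relation between them was computed. In the overexpressers, 18.5% (LBD37) and 17.9% (LBD38) of probe sets differed from depleted wild type. LBD37 overexpresser replicate 3 stood apart, with an array median of 6.875 and an interquartile range of 2.893, against 6.955 to 7.060 and 3.062 to 3.282 on the other 17 arrays. Without it 3875 probe sets differed in place of 4203, an alternative added after seeing the data. GAMMA-VPE read 13.0 to 13.1 as a group mean in all 3 depleted groups and 10.3 to 10.5 in all 3 replete groups. The 4 vacuolar processing enzymes had no call in either overexpresser, with changes of −0.26 to 0.28 (limma). At an unadjusted p under 0.05 there was 1 in the LBD37 and 0 in the LBD38 overexpresser. CHLI2 read 9.23 ± 0.02 in replete wild type, 7.04 ± 0.32 in depleted wild type, 7.34 ± 0.21 in the LBD37 overexpresser and 7.60 ± 0.02 in the LBD38 overexpresser. The last was higher than in depleted wild type (0.56, adjusted p = 0.00375). The LBD37 overexpresser did not pass (0.31, adjusted p = 0.0984) but did without its replicate 3 (0.43, adjusted p = 0.0258).

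Plastid-encoded genes were higher in the overexpressers than in depleted wild type, 24 of 62 in the LBD37 overexpresser, where 7.21% of all probe sets were higher, and 45 of 62 in the LBD38 overexpresser, where 9.26% were. None of the 62 was lower. Without LBD37 overexpresser replicate 3, 31 of 62 were higher in the LBD37 overexpresser, with a median of 0.48, and rpl16 stood at 1.35. With all arrays the median changes of the 62 were 0.41 and 0.56, against −0.90 for depletion in wild type. The rpl16 gene stood 1.11 and 0.98 above depleted wild type (adjusted p = 0.001 and 0.00239). Cytosolic ribosomal protein genes had medians of 0.03 and 0.07, with 0 of 117 called in the LBD37 overexpresser and 3 in the LBD38 overexpresser (limma, 11 with an unadjusted p under 0.05 in each).

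SWEET13 was lower in both overexpressers than in depleted wild type, at −2.11 (LBD37) and −1.78 (LBD38), and AT4G33040 at −1.64 and −1.54. ASPGB1 was at −2.03 and −1.43, while ALN changed by 0.11 and 0.40, the second past the threshold (adjusted p = 0.0209). MSRB6 was higher by 1.32 and 1.86. Without LBD37 overexpresser replicate 3 the LBD37 values were −2.04 for SWEET13, −1.52 for AT4G33040, −1.97 for ASPGB1, 0.16 for ALN and 1.52 for MSRB6, with no call changed. In replete lbd37 and lbd38 mutants, where 0.189% and 1.19% of probe sets differed from replete wild type, none of these 5 genes passed the threshold. AT4G15680, one of the glutaredoxin loci, did, at −1.12 against replete wild type in lbd38 (adjusted p = 0.00749), as did AT4G15700 at −0.73 (adjusted p = 0.0143).

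**Figure D5:**
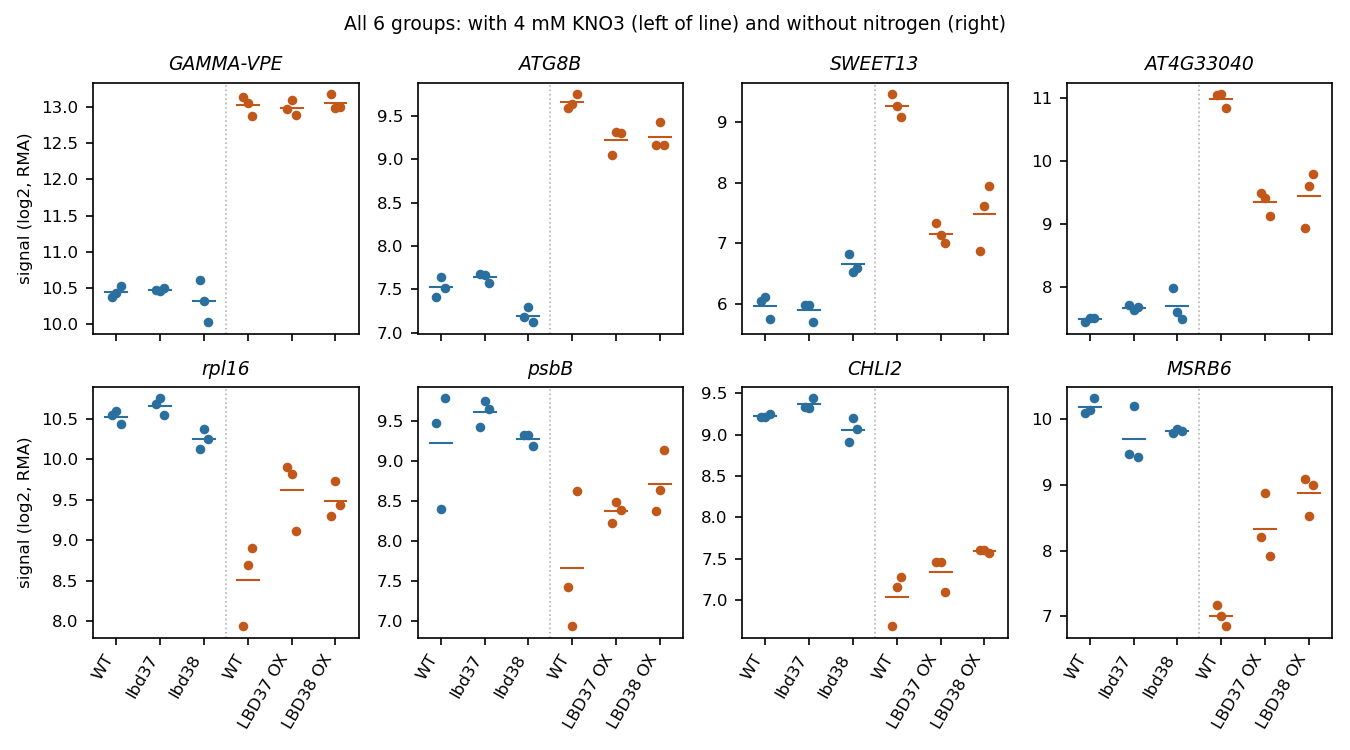
Signal (log2, RMA) of 8 genes on all 18 arrays, replete groups in blue left of the dotted line and depleted groups in orange right of it, with bars at the means of 3 arrays and a separate scale in each panel. GAMMA-VPE lies level in the 3 depleted groups, SWEET13 and AT4G33040 lie lower and MSRB6 higher in both overexpressers than in depleted wild type.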

How the data were processed

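RNA of whole seedlings was hybridised to Affymetrix ATH1 arrays. The authors deposited log2 signal values per probe set, made with RMA per the submitters' processing notes, without a stated version, and these values were used without further scaling. RMA sets all arrays to 1 common distribution, so a shift of all transcripts cannot be seen. Control probe sets were left out. A linear model with 6 groups was fitted to all 18 arrays with limma 3.58.1 (R 4.3.3, eBayes without a trend, 12 residual degrees of freedom), with two-sided tests and Benjamini-Hochberg adjustment over 22746 probe sets at a threshold of 0.05. The number of arrays limits the precision. On simulated data of 22746 probe sets for this comparison, 99 of 100 changes of 1 and 100 of 100 changes of 2 on the log2 scale were recovered. There were 7 false calls among the unchanged probe sets. The simulation used independent noise and few changed probe sets, unlike the real data. Changes smaller than 1 were not simulated, so it does not show how reliable the smaller calls are. A locus with several probe sets was read by the brightest.

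By the rule for named genes, any measured list member could be named, with values on every array for at most the 6 largest changes of a list, and members that moved against their list or had overlapping groups. The 30 largest rises and falls without overlap and with 1 gene were counted and named where they had a symbol or description, and the 5 largest of each direction with no listed gene were named by identifier. Array values of PGRL1B, rbcL and GSTU26, outside the 6 largest of their lists, were added after their values were seen. The members and lists were chosen with earlier results of these data known, and many lists of loci rest on background knowledge. Deviations of same-numbered depleted and replete arrays from their group means correlated at r of −0.028, 0.238 and 0.017. Differently numbered arrays gave −0.164 to 0.139. The arrays were treated as unpaired, but with 3 arrays a group these values cannot settle whether the numbers mark a shared batch. The alternatives comprised repeated quantile normalization, a replicate block, centring each array, dropping the dimmest 40% of probe sets, the 6 wild-type arrays alone, a robust trend, array weights, leaving out each wild-type array and, added after seeing the data, LBD37 overexpresser replicate 3.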

Additional observations from a re-analysis of the deposited data

How the results depend on the processing

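Over 5 counts of all probe sets past the threshold, all 70 alternative values lay within 1.5 times the reported count, from 8970 with the dimmest 40% left out to 12436 without LBD37 overexpresser replicate 3 for the total; with the replicate block it was 11589. The cause of the following changes was not tested, other than that leaving out the dimmest probe sets removes members. With those left out, the CC-type glutaredoxins had 9 members past the threshold and a median log2 change of 1.82, against −0.38 over all. SWEET transporters had 6 and −0.04, expansins and xyloglucan endotransglucosylases 11 and 0.08, histones 3 and the exocyst 2 past the threshold. Medians were −0.78 for plastid NDH genes, −0.44 for cellulases, 0.72 for calmodulin-like proteins, −2.37 for jacalin lectins, 2.36 for vacuolar processing enzymes, −1.26 for tetrapyrrole genes, 0.07 for auxin genes and 0.09 for MADS-box genes. The medians of auxin genes, MADS-box genes, glutaredoxins and expansins turned direction. The exocyst also had 2 members past the threshold with array weights, with centring, with the replicate block and without LBD37 overexpresser replicate 3, and the histones 3 with the wild-type arrays alone. Repeated quantile normalization gave medians of 0.81 for nitrate reduction and reductant and −0.28 for cytosolic ribosomal proteins. Leaving out 1 array gave 2 to 5 histones and 0 to 2 exocyst subunits past the threshold. Medians then ran from 0.65 to 0.78 for nitrate reduction and reductant, 0.74 to 0.91 for autophagy, 1.13 to 1.42 for senescence and 2.00 to 2.30 for late anthocyanin synthesis. They ran from −0.44 to −0.26 for CC-type glutaredoxins, −0.79 to −0.64 for NDH genes, 0.84 to 1.13 for calmodulin-like proteins and 0.72 to 0.85 for ESCRT. Of 163 named genes and probe sets 11 changed call under some alternative. Apart from rpoB, URE, psbA and psbM, these were UGLYAH, which passed at 0.17 with repeated quantile normalization (limma adjusted p = 0.0331), and DELTA-VPE, which passed at −0.25 without depleted replicate 1 (adjusted p = 0.0399). Calls were lost by EXPA7 without depleted replicate 1 (0.35), by bHLH121 without depleted replicate 2 (−0.26), by FMA without depleted replicate 2 (0.19) or replete replicate 1 (0.21), by AT3G62950 without depleted replicate 3 (−0.29) or replete replicates 2 or 3 (−0.32 and −0.26), and by HIS1-3 in 6 alternatives (0.16 to 0.23). HEMA2 turned direction at 0.01 with repeated quantile normalization, at 0.01 without replete replicate 2 and at 0.08 without depleted replicate 2 (range −0.05 to 0.08 over arrays left out), and UGT78D1 at −0.02 without replete replicate 2. The replicate block changed no call of a named gene. Of the dimmest probe sets, under a mean signal of 5.27, 5.43% were higher and 14.8% lower, against 36.2% and 33.4% of those above 8.39.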

Other observations

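In the UDP-glycosyltransferase, TRICHOME BIREFRINGENCE-LIKE and CYP71B families the shares of members called lay near the 23.5% higher and 26.6% lower over all probe sets, so the values below describe single members. Of 47 UDP-glycosyltransferases, which join sugars to small molecules, 14 were higher and 10 lower in depleted seedlings, from UGT76D1 at 1.90 to UGT73B1 at −1.77 on the log2 scale. Of 22 TRICHOME BIREFRINGENCE-LIKE genes of wall acetylation 6 were higher and 5 lower, and the neighbours TBL28 and TBL30 moved in opposite directions. Of 19 CYP71B cytochromes P450, CYP71B23 stood apart at 2.30, with 5 members higher and 4 lower. Of 40 MADS-box genes 3 were higher and 7 lower, and AGL87 fell by 2.22. The tetraspanin TET8, a membrane protein known from extracellular vesicles, rose by 1.57. The auxin-conjugating enzyme gene WES1 rose by 1.35 among 16 auxin genes, of which 11 did not pass.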
